A study of Mus musculus with 6 samples.

Results

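The genes described here are the regulators of p53 and the genes that p53 switches on directly, measured in mouse fibroblasts with and without the adaptor protein FHL2. The 36 genes were chosen by their known role as p53 regulators or targets, with earlier results of these data known. Of these, 33 could be read among the 18193 genes tested, and Trp53 itself, Bax and Fdxr were not analysed here. Cdkn1a, the best known target, is not in the list and is given once for reference. Gene expression was measured on 6 one-colour Affymetrix arrays, with 1 array for each clone of embryonic fibroblasts. The knockout group held clones E, H and J, derived from mice of genotype FHL2-/-, and the wild type group held clones E, F and I, derived from WT mice. All 6 clones had become immortal in culture by themselves, with no introduced gene or treatment named in the labels. The labels call the 3 samples of a genotype biological replicates, but no source used here gives the strain, the passage number or whether separate embryos were used, so p-values measure the spread between clones.

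The transcription factor p53 is kept scarce in unstressed cells by the ubiquitin ligase Mdm2 and its partner Mdm4. DNA damage and oncogenic signals free p53 from them, through kinases such as Atm and Chek2 and through the Arf protein of the Cdkn2a locus. It then induces genes that stop the cell cycle, kill the cell, repair DNA or adjust metabolism, and it also induces Mdm2, which closes a feedback loop. In cultured mouse fibroblasts, spontaneous immortalisation commonly goes with loss of p53 or of Arf function. No source used here says whether these clones kept a working p53, and an expression array does not read mutations.

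A p53 binding site is a pair of decamers of 1 consensus. The decamer was searched in promoter windows of 300 bases, from 250 before to 50 after a transcription start (RefSeq, GRCm38.p6). The consensus is RRRCWWGYYY, where R is A or G, W is A or T and Y is C or T. It is its own reverse complement, so a match counts for both strands. Only decamers that match it at every base were counted. Windows were found for 25 of the 33 genes, and 11 of these genes (44.0%) held a decamer in at least 1 of their windows. Among all 27025 genes with a window, 9.55% did. Of the 37 windows of these genes, 12 held a decamer (32.4%), against 8.36% of all 32851 windows in the table. The decamer was present in 4 of 13 genes with a window that rose in knockout clones, in 1 of 2 that fell and in 6 of 10 that did not pass. The 4 that rose and the gene with the largest fall, Gadd45a, are shown with up to 30 bases on each side. The decamer stands in capitals and the strand is that of the gene.
Ccng1, chr11:40755432-40755501, minus strand: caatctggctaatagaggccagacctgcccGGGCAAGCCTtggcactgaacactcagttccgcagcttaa
Mdm2, chr10:117710905-117710974, minus strand: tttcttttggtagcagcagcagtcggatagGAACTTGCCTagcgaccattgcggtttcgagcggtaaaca
Polk, chr13:96519379-96519437, minus strand: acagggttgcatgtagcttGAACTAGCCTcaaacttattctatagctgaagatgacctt
Aen, chr7:78895927-78895956, plus strand: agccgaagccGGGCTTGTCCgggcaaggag
Gadd45a, chr6:67037408-67037477, minus strand: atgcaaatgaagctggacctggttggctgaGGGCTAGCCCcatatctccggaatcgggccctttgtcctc
The decamer began at base -185 of the start in Ccng1, at -186 in Mdm2, at -231 of 1 annotated start in Polk, at 11 of 1 annotated start in Aen, which is -121 of another, and at -40 in Gadd45a. A pair of decamers at most 13 bases apart was found in 24 of all windows (0.0731%). No window of the 25 genes held such a pair of exact matches, and 1 of the 2 windows of Cdkn1a did. Pairs with a decamer that departs from the consensus were not searched. The counts therefore do not show that a promoter lacks a p53 site. A match is a description of these letters and not a measured binding site, and sites elsewhere in the genes were not searched.

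Values below are RMA levels, that is log2 intensities, listed for knockout clones E, H, J and then for wild type clones E, F, I. Differences are knockout minus wild type on that scale with the standard error (SE) of a limma fit over all genes, 3 clones per genotype. Genes are said to rise or fall where the Benjamini-Hochberg adjusted p over all genes lay under 0.05. The array median was 5.21 to 5.22 for knockout and 5.16 to 5.17 for wild type clones, and the 3' to 5' difference of the Gapdh control probe sets was -0.119 to -0.045 and -0.041 to 0.052. Both lay apart by genotype. The actin controls overlapped instead, with a 3' to 5' difference of 0.103 to 0.235 (knockout) and 0.0929 to 0.133 (wild type). What part these measures had in the results was not tested. Fhl2 itself read 6.01, 6.44 and 6.57 in knockout and 9.88, 8.57 and 9.64 in wild type clones (-3.02, SE 0.35, adjusted p = 0.00400). No source used here says whether its probe set lies in the deleted part. Knockout clone H stood apart, with Xist at 9.82 against 4.69 to 5.11 in all other clones and an array weight of 0.386 where the others had 1.07 to 1.56. The 13 fibroblast markers all lay in the upper part of the gene means (percentile 52.0 to 100), and 4 of them rose and 2 fell. Among them Lum differed by 4.81, Pdgfra by 1.76 and Thy1 by -1.34, and the summed marker intensity ran from 67463 to 71922 among knockout clones and from 50627 to 60145 among wild type clones. Of the measured markers of epithelium, endothelium, leukocytes, neural cells and muscle, 2 rose (Epcam and Tek) and 3 fell (Cd53, Nes and Tubb3). Summed intensities in knockout and wild type clones were 291 to 314 and 228 to 276 for epithelium. They were 202 to 563 and 86.3 to 158 for endothelium, and 169 to 184 and 252 to 320 for leukocytes. Of the 6 endothelial markers only Tek passed, at 8.36, 4.68 and 8.91 in knockout and 3.27, 3.31 and 2.54 in wild type clones. Of the 6 leukocyte markers only Cd53 passed, at 3.78, 4.30 and 3.68 against 6.89, 6.93 and 6.53. Percentiles of gene means ran from 4.57 (Ptprc) to 62.8 (Csf1r) for leukocyte markers and from 5.52 (Cdh1) to 69.95 (Epcam) for those of epithelium. The sums were 167 to 283 and 403 to 734 for neural cells, and 62.9 to 71.2 and 62.5 to 110.4 for muscle. Of the 4 measured neural markers Nes (-0.81) and Tubb3 (-3.20) fell, and Sox10 (0.13) and Gfap (0.31) did not pass. The part of these cell types in the results was not tested. In bulk RNA, a different share of cells that express a gene and a different amount per cell cannot be told apart.

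Most of the measured p53 genes that changed were higher in knockout clones. Of the 33 genes, 18 passed (54.5%), where 19.0% of all genes did. In knockout clones 15 rose (45.5%), where 9.04% of all genes rose, and 3 fell (9.09%), where 10% of all genes fell. The 15 that rose were Mdm2, Mdm4, Ccng1, Zmat3, Btg2, Phlda3, Trp53inp1, Fas, Eda2r, Aen, Bbc3, Ercc5, Polk, Dcxr and Ak1; the 3 that moved against them were Gadd45a, Tigar and Rrm2b. The changes reached at least 2-fold in 13 genes that rose and in 2 that fell. Of all 18193 genes, 1495 passed with at least a 2-fold difference in either direction. Knockout values lay wholly above the wild type values in 17 of the 33 genes and wholly below in 5, where 20.7% and 18.2% of all genes did; together that is 66.7% of the 33 genes and 38.9% of all genes. The median difference was 0.59 over the 33 genes and 0.04 over all genes. Cdkn1a, which encodes the cell cycle inhibitor p21, read 10.23, 11.15 and 10.76 in knockout clones and 7.07, 6.65 and 7.31 in wild type clones (3.70, SE 0.27, adjusted p = 0.00131).

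**Figure D1:**
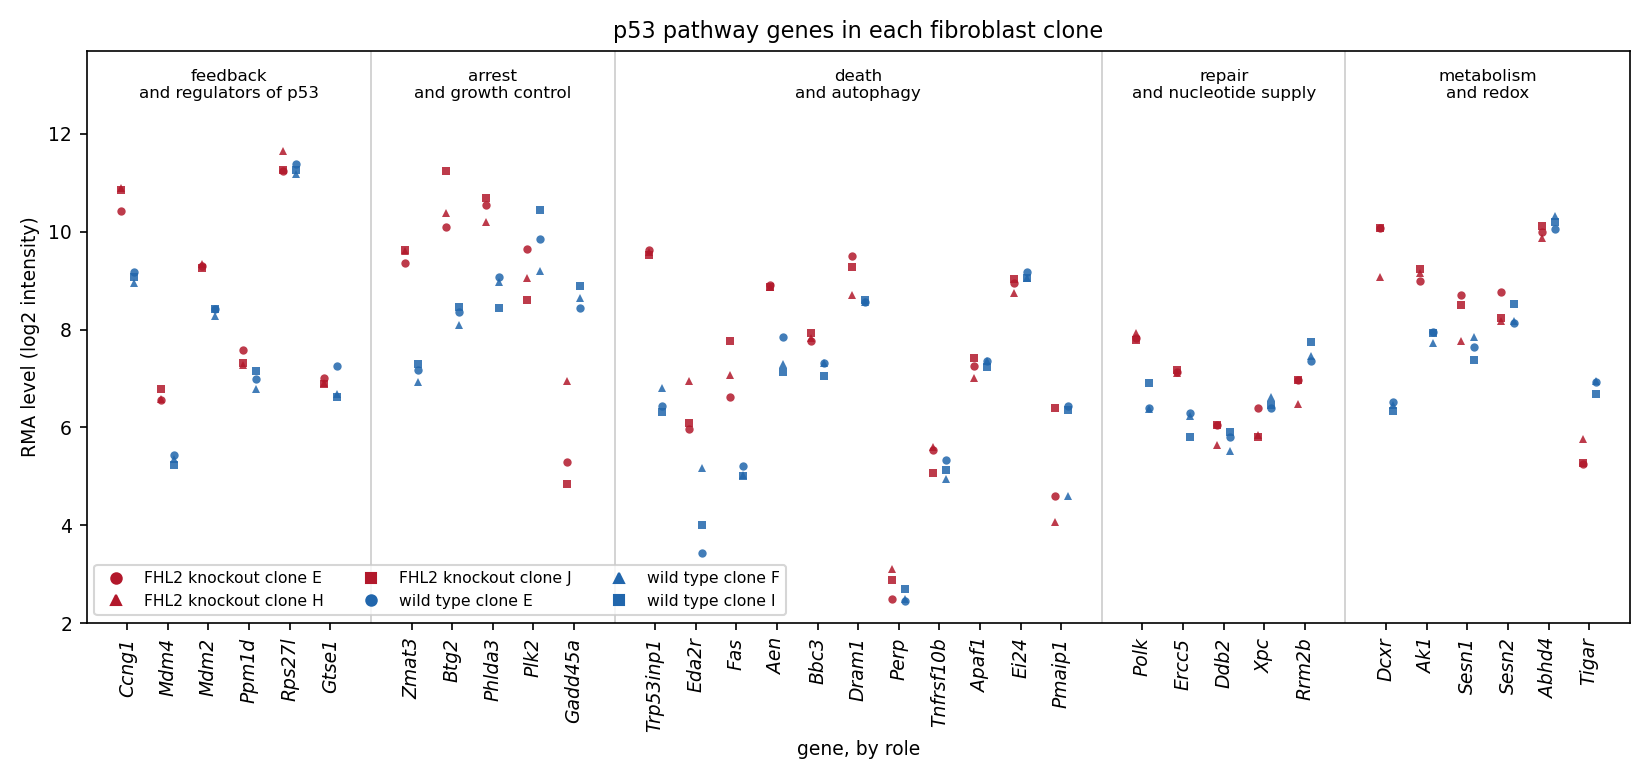
RMA level (log2 intensity, vertical axis) of the 33 measured p53 pathway genes, grouped by role along the horizontal axis. Red symbols are the 3 FHL2 knockout clones and blue symbols the 3 wild type clones, 1 point per clone; genes such as Trp53inp1, Zmat3 and Dcxr show groups far apart, while Pmaip1 shows values from 4.07 to 6.44 that overlap.

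Among the genes that control p53 itself, 3 of 6 rose and 0 fell. Mdm2, the ubiquitin ligase that marks p53 for destruction, read 9.30, 9.34 and 9.25 in knockout clones and 8.42, 8.28 and 8.42 in wild type clones. The groups did not overlap, and the spread within each was small (SD 0.0440 and 0.0814, n = 3). Mdm2 rose by 0.92 (SE 0.09, adjusted p = 0.00282), or 1.90-fold. Mdm4, the relative of Mdm2 that masks the activation domain of p53, read 6.57, 6.58 and 6.79 against 5.45, 5.35 and 5.24 and rose by 1.30 (SE 0.11, adjusted p = 0.00178). Every knockout clone again lay above every wild type clone. Ccng1, cyclin G1, a p53 target that acts with Mdm2, read 10.43, 10.89 and 10.84 against 9.18, 8.95 and 9.08 and rose by 1.65 (SE 0.15, adjusted p = 0.00214), or 3.14-fold.

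The other 3 genes of this group did not pass. Ppm1d, the phosphatase Wip1 that shuts off damage signalling, read 7.58, 7.28 and 7.31 in knockout and 6.99, 6.78 and 7.16 in wild type clones, without overlap (0.42, SE 0.14, adjusted p = 0.0956). It passed when its 2 probe sets were averaged (0.65, adjusted p = 0.0421). Gtse1, a microtubule-associated protein that moves p53 out of the nucleus, differed by 0.09 (SE 0.18, adjusted p = 0.787), and its values of 6.89 to 7.02 in knockout lay inside the wild type range of 6.62 to 7.25. Rps27l, a ribosomal protein paralog induced by p53, differed by 0.10 (SE 0.14, adjusted p = 0.677), with 11.24 to 11.65 against 11.19 to 11.39. Its probe sets carry suffixes open to cross-hybridization, and the ribosomal protein genes have many near copies.

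The genes of arrest and growth control held both large rises and the largest fall: of 5, 3 rose and 1 fell. Zmat3, a zinc-finger protein that binds RNA, read 9.37, 9.61 and 9.64 in knockout clones and 7.17, 6.92 and 7.30 in wild type clones. It rose by 2.41 (SE 0.14, adjusted p = 6.02e-04), or 5.30-fold, and the clones of each genotype lay close together. Btg2, an antiproliferative cofactor of mRNA deadenylation, read 10.09, 10.39 and 11.24 against 8.35, 8.08 and 8.46 (2.27, SE 0.30, adjusted p = 0.00557), with clone J the highest. Phlda3, a small pleckstrin-homology protein that holds back Akt, read 10.55, 10.20 and 10.69 against 9.08, 8.98 and 8.45 (1.64, SE 0.21, adjusted p = 0.00523). Here too the lowest knockout clone, H, lay above the highest wild type clone, E.

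Gadd45a, a stress sensor that binds PCNA and p21 and activates p38 and JNK kinases, went the other way. It read 5.28, 6.94 and 4.84 in knockout clones and 8.45, 8.64 and 8.89 in wild type clones. All knockout clones were lower, but they differed among themselves more than the wild type clones did (SD 1.11 and 0.219, n = 3), with clone H the highest of them. Gadd45a fell by 2.97 (SE 0.52, adjusted p = 0.0125), or 7.84-fold, and by 3.60 without knockout clone H (adjusted p = 1.59e-04). Plk2, a polo-like kinase induced by p53, read 9.65, 9.06 and 8.61 against 9.85, 9.19 and 10.45 and did not pass (-0.72, SE 0.38, adjusted p = 0.245); its groups overlapped.

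**Figure D2:**
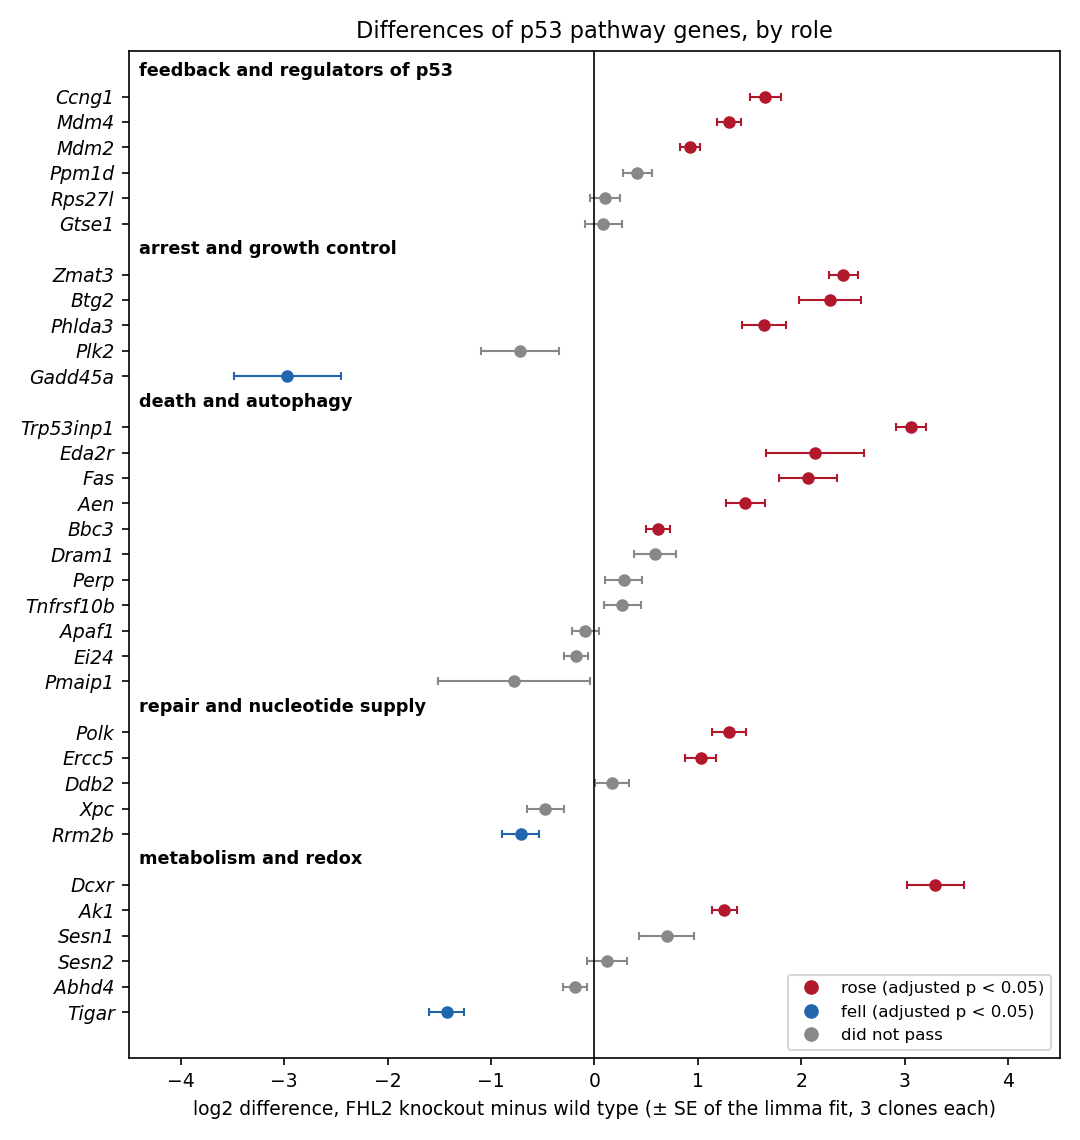
Log2 difference of each of the 33 genes, knockout minus wild type, with bars for the SE from limma (3 clones of each genotype), grouped by role. Red genes rose and blue genes fell at an adjusted p under 0.05; the 15 rises run from 0.62 in Bbc3 to 3.30 in Dcxr, and the 3 falls are Gadd45a, Tigar and Rrm2b.

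Of the 11 measured genes of cell death and autophagy, 5 rose (45.5%) and 0 fell. Trp53inp1, a nuclear protein that acts with p53 in cell death and autophagy, read 9.62, 9.59 and 9.53 in knockout clones and 6.43, 6.81 and 6.31 in wild type clones. It rose by 3.06 (SE 0.15, adjusted p = 3.76e-04), or 8.35-fold, and its knockout clones varied little (SD 0.0463, n = 3). Fas, the death receptor for Fas ligand, read 6.62, 7.07 and 7.76 against 5.21, 5.02 and 5.01 and rose by 2.07 (SE 0.28, adjusted p = 0.00612). Its wild type clones were nearly equal, and clone J was the highest of the knockout clones, as for Btg2. Aen, a nuclease that digests DNA in dying cells, read 8.90, 8.88 and 8.88 against 7.85, 7.30 and 7.13 (1.46, SE 0.19, adjusted p = 0.00548). Its knockout clones varied little (SD 0.0146, n = 3) beside the wild type clones (SD 0.376, n = 3).

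The other risers of this group, Bbc3 and Eda2r, lay closer to the threshold. Bbc3, the BH3-only protein Puma that sets off the mitochondrial death pathway, read 7.77, 7.82 and 7.93 in knockout and 7.31, 7.31 and 7.05 in wild type clones. All knockout clones lay above all wild type clones, and the rise was 0.62 (SE 0.12, adjusted p = 0.0154). With knockout clone J left out, Bbc3 no longer passed (0.57, adjusted p = 0.0606). Eda2r, the X-linked receptor for ectodysplasin A2, read 5.97, 6.94 and 6.09 against 3.44, 5.16 and 4.004 and rose by 2.13 (SE 0.47, adjusted p = 0.0262). Both groups spread widely and did not overlap, with clone H the highest. Eda2r no longer passed in 4 of the 6 fits that omit a clone: the adjusted p was 0.0544 and 0.0694 when knockout E or J was omitted, and 0.0807 and 0.0843 when wild type E or I was. The differences in these fits were 2.32, 2.25, 1.75 and 2.03, against 2.13 with all clones.

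The remaining 6 death genes did not pass. Dram1, a lysosomal membrane protein that promotes autophagy, read 9.504, 8.72 and 9.28 in knockout and 8.57, 8.56 and 8.61 in wild type clones (0.59, SE 0.20, adjusted p = 0.0975). All knockout clones were higher, but clone H only slightly, and the gene passed without clone H (0.81, adjusted p = 0.00455) or with array weights (0.72, adjusted p = 0.0160). Pmaip1, the BH3-only protein Noxa, read 4.59, 4.07 and 6.39 against 6.44, 4.59 and 6.36 (-0.78, SE 0.73, adjusted p = 0.517), so clones of both genotypes were high or low. Tnfrsf10b, the death receptor for TRAIL, differed by 0.27 (SE 0.18, adjusted p = 0.357), with 5.06 to 5.59 against 4.94 to 5.33. Apaf1, the scaffold of the apoptosome, differed by -0.09 (SE 0.13, adjusted p = 0.691). Ei24, a protein of the endoplasmic reticulum, read 8.95, 8.75 and 9.04 against 9.17, 9.06 and 9.05, lower in every knockout clone by a small margin (-0.18, SE 0.11, adjusted p = 0.331). Perp, a membrane protein of desmosomes and apoptosis, read 2.45 to 3.11 in all 6 clones, near the lower end of the scale (percentile 4.48 of gene means), and differed by 0.28 (SE 0.18, adjusted p = 0.323).

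Repair genes were divided. Of 5, 2 rose and 1 fell. Polk, a polymerase that copies past DNA lesions, read 7.84, 7.94 and 7.78 in knockout clones and 6.39, 6.37 and 6.90 in wild type clones (1.30, SE 0.17, adjusted p = 0.00511). Ercc5, the XPG nuclease of nucleotide excision repair, read 7.14, 7.11 and 7.16 against 6.28, 6.24 and 5.81 (1.03, SE 0.15, adjusted p = 0.00711). Both genes were nearly level among the knockout clones and lay above all wild type clones.

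Rrm2b, the p53-induced subunit of ribonucleotide reductase that supplies nucleotides for repair, read 6.98, 6.48 and 6.97 in knockout and 7.36, 7.45 and 7.75 in wild type clones. It fell by 0.71 (SE 0.18, adjusted p = 0.0391). The groups did not overlap, yet the call was lost in every fit that left out a clone other than knockout clone H. In those 5 fits the adjusted p was 0.0658 and 0.0763 with knockout E or J omitted, and 0.0801, 0.0941 and 0.110 with wild type E, F or I omitted. The differences were -0.80, -0.79, -0.79, -0.74 and -0.60 in the same order, against -0.71 with all clones. Xpc, which recognises damage in nucleotide excision repair, read 6.39, 5.85 and 5.80 against 6.39, 6.62 and 6.46 (-0.48, SE 0.18, adjusted p = 0.120). It passed without knockout clone E (-0.66, adjusted p = 0.0305), the clone level with the wild type. Ddb2, the other damage recognition factor, differed by 0.17 (SE 0.17, adjusted p = 0.528), with 5.63 to 6.05 against 5.52 to 5.90.

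Among the metabolic genes, 2 of 6 rose (33.3%) and 1 fell (16.7%). Dcxr, a reductase of dicarbonyl compounds and xylulose, read 10.08, 9.08 and 10.07 in knockout clones and 6.52, 6.47 and 6.34 in wild type clones. Clone H was the lowest knockout clone and still far above the wild type clones. Dcxr rose by 3.30 (SE 0.28, adjusted p = 0.00173), or 9.83-fold, the largest difference among the 33 genes. Genes next to it were also higher: the median of its 40 nearest measured neighbours differed by 0.49, and Dcxr rose by 2.81 after that median was subtracted. Ak1, the cytosolic adenylate kinase, read 8.99, 9.15 and 9.25 against 7.95, 7.73 and 7.94 (1.26, SE 0.12, adjusted p = 0.00219).

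Tigar, a phosphatase that lowers fructose-2,6-bisphosphate and so slows glycolysis, moved against the list. It read 5.24, 5.76 and 5.26 in knockout clones and 6.92, 6.95 and 6.68 in wild type clones. It fell by 1.43 (SE 0.17, adjusted p = 0.00415), or 2.69-fold, without overlap. The sestrins, stress proteins that restrain mTORC1, did not pass. Sesn1 read 8.70, 7.77 and 8.51 against 7.65, 7.86 and 7.38 (0.70, SE 0.26, adjusted p = 0.118), with clone H inside the wild type range, and it passed without clone H (0.97, adjusted p = 0.00795) or with array weights (0.87, adjusted p = 0.0222). Sesn2 differed by 0.12 (SE 0.20, adjusted p = 0.724), and by 0.56 (adjusted p = 0.0709) after the median of its neighbours, which was lower in knockout clones by -0.44, was subtracted. Abhd4, a lipase for N-acyl phospholipids, differed by -0.19 (SE 0.12, adjusted p = 0.329).

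**Figure D3:**
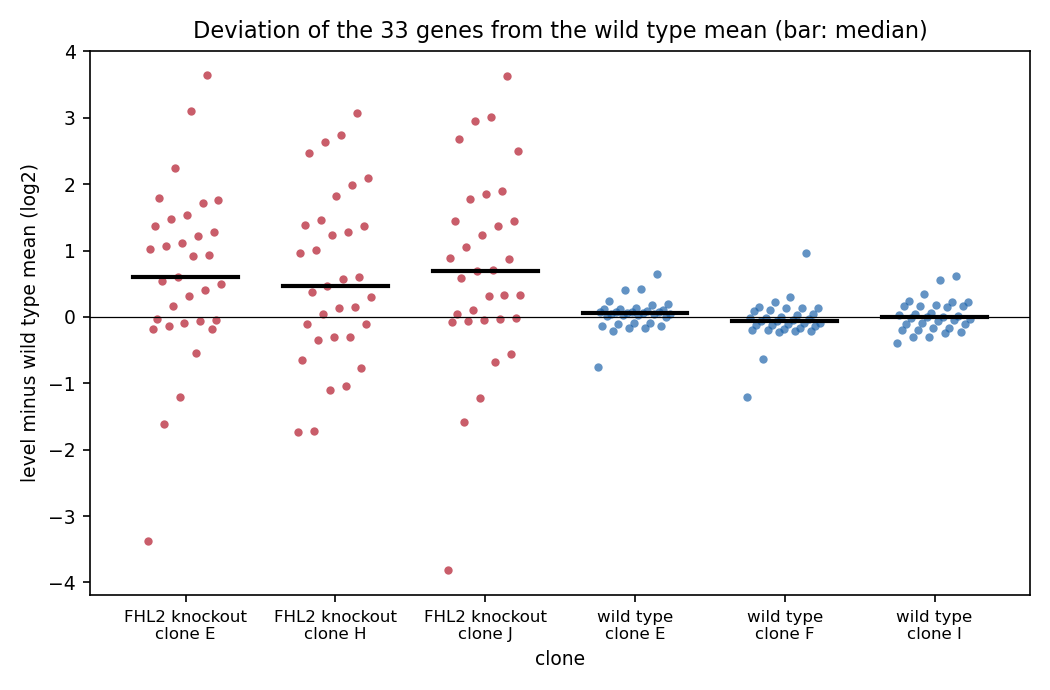
Level of each of the 33 genes in each clone minus that gene's wild type mean (log2, vertical axis), 1 point per gene, with the median over genes as a black bar. The bars of the knockout clones lie at 0.61, 0.46 and 0.70 from left to right; wild type points lie near 0 in part because the wild type clones form the mean.

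Most of the 33 genes lay above the wild type clones in each knockout clone. The median of the 33 genes lay above the wild type mean by 0.61 in clone E, 0.46 in clone H and 0.70 in clone J. In clones E and J, 21 genes lay above all wild type clones and 6 below, and in clone H 20 and 9. Such counts for single clones were not made over all genes, so they cannot be read against a background share. Clone H was the farthest from the knockout median in 15 of the 33 genes, clone E in 10 and clone J in 8. Among the wild type clones these counts were 14 for clone I, 12 for clone F and 7 for clone E. The median SD among knockout clones was 0.251 for the 33 genes and 0.166 for all genes, and among wild type clones 0.193 and 0.149. Of the 18 genes that rose or fell, 15 passed whichever 1 of the 6 clones was omitted. The exceptions were Bbc3, Eda2r and Rrm2b.

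Other probe sets of the same genes were read as a check, with all probe sets tested together. Of the 18 genes that rose or fell, 11 had more than 1 probe set, and in 8 every other probe set passed in the same direction. The 4 probe sets of Aen rose by 1.46 to 1.54 and the 3 of Ccng1 by 1.65 to 1.76. All 4 of Rrm2b fell, by 0.71 to 0.83, and so did all 3 of Tigar, by 0.61 to 1.43. Those of Btg2, Polk, Trp53inp1 and Ak1 rose as well, with 0.37 for the second probe set of Ak1 and 2.06 for that of Trp53inp1. The second probe set of Ak1 was dim, at 2.98 to 3.48 in all clones.

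Among the genes that rose, probe sets disagreed in Mdm2, Mdm4 and Ercc5. A second probe set of Mdm2 rose by 0.96 and the third, dim at 2.72 to 3.08 in all clones, differed by -0.04. Of the other 3 probe sets of Mdm4, 1 rose by 0.59 and 2 differed by -0.03 and -0.04. The second of Ercc5 read 2.34 to 2.89 and differed by 0.21. Averaging all probe sets of a gene therefore gave smaller rises: 0.61 for Mdm2, 0.46 for Mdm4, 0.62 for Ercc5 and 0.81 for Ak1, and a smaller fall of -0.91 for Tigar, all of which still passed. With probe sets open to cross-hybridization left out, Mdm2 was read by the dim probe set alone and did not pass (-0.04, adjusted p = 0.850). In that setting Mdm4 rose by 0.59, and Ak1, read by its dim second probe set, by 0.37. Among the genes that did not pass, the second probe set of Ppm1d rose by 0.88 (adjusted p = 0.0309). The second probe sets of Apaf1 (0.26) and Plk2 (0.24) had the opposite sign to the first, and neither passed.

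**Figure D4:**
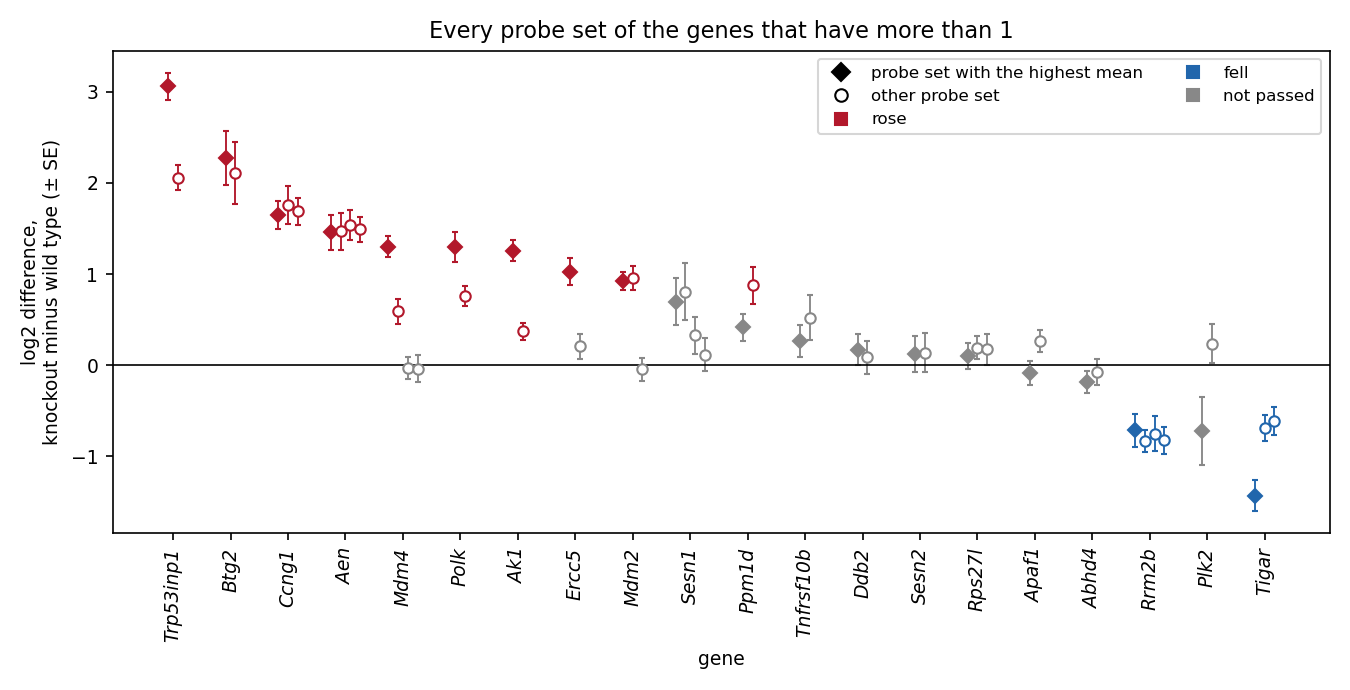
Log2 difference (knockout minus wild type, ± SE, n = 3 clones per genotype) of every probe set of the 20 genes that have more than 1. Filled diamonds are the probe sets used for the gene and open circles the others; colours give the call, and Mdm4, Mdm2, Ercc5 and Ppm1d hold both red and grey points.

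A second list of 45 measured p53 targets gave a smaller share of rises. It was written from textbook knowledge, but with earlier results of these data known. Of the 45 targets, 11 rose (24.4%) and 5 fell (11.1%), with a median difference of 0.22. Of all genes, 9.04% rose and 10% fell, with a median of 0.04. Pltp, a phospholipid transfer protein, read 11.30, 10.22 and 11.43 in knockout clones and 6.87, 7.62 and 6.56 in wild type clones (3.97, SE 0.40, adjusted p = 0.00265). Sulf2, which removes sulfate from heparan chains, rose by 2.94 (SE 0.36, adjusted p = 0.00451). Slc19a2, a thiamine transporter, rose by 1.89 (SE 0.19, adjusted p = 0.00265), and Siva1, a proapoptotic protein, by 0.75 (SE 0.11, adjusted p = 0.00742). Epha2, an ephrin receptor, read 5.89, 6.17 and 6.26 against 7.69, 7.38 and 7.53 and fell by 1.43 (SE 0.14, adjusted p = 0.00251). The probe sets of Pltp, Sulf2, Siva1 and Epha2 carry suffixes open to cross-hybridization. With such probe sets left out, 40 targets were tested, of which 8 rose and 3 fell. The count that rose was 17 without knockout clone H. The count that fell was 3 with knockout E or wild type I omitted, and 1 with knockout J, wild type E or wild type F omitted.

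Of 29 measured regulators and cofactors of p53, 6 fell (20.7%), 2 rose (6.90%) and 21 did not pass, with a median difference of -0.17. Of all genes, 10% fell and 9.04% rose. Cdkn2a, the locus of p16 and of Arf, the inhibitor of Mdm2, read 7.59, 8.74 and 7.77 in knockout clones and 10.11, 10.15 and 9.84 in wild type clones. It fell by 2.004 (SE 0.30, adjusted p = 0.00827), and its probe set reads the locus, not Arf alone. Chek2, a checkpoint kinase that phosphorylates p53, read 5.62, 5.58 and 5.64 against 7.49, 7.22 and 7.06 and fell by 1.64 (SE 0.13, adjusted p = 0.00160). Atm, the kinase upstream of Chek2, fell by 1.39 (SE 0.17, adjusted p = 0.00426). Ube4b, a ubiquitin chain elongation factor that acts on p53, fell by 1.02 (SE 0.12, adjusted p = 0.00389). All 4 of these lay lower in every knockout clone than in any wild type clone. Ppp1r13b, or ASPP1, which steers p53 to death genes, was among the genes that rose (1.31, SE 0.17, adjusted p = 0.00546). The probe sets of Cdkn2a, Ube4b and Ppp1r13b carry suffixes open to cross-hybridization. With such probe sets left out, 23 regulators were tested, of which 5 fell and 1 rose. The count that rose was 1 with knockout E or any single wild type clone omitted.

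**Figure D5:**
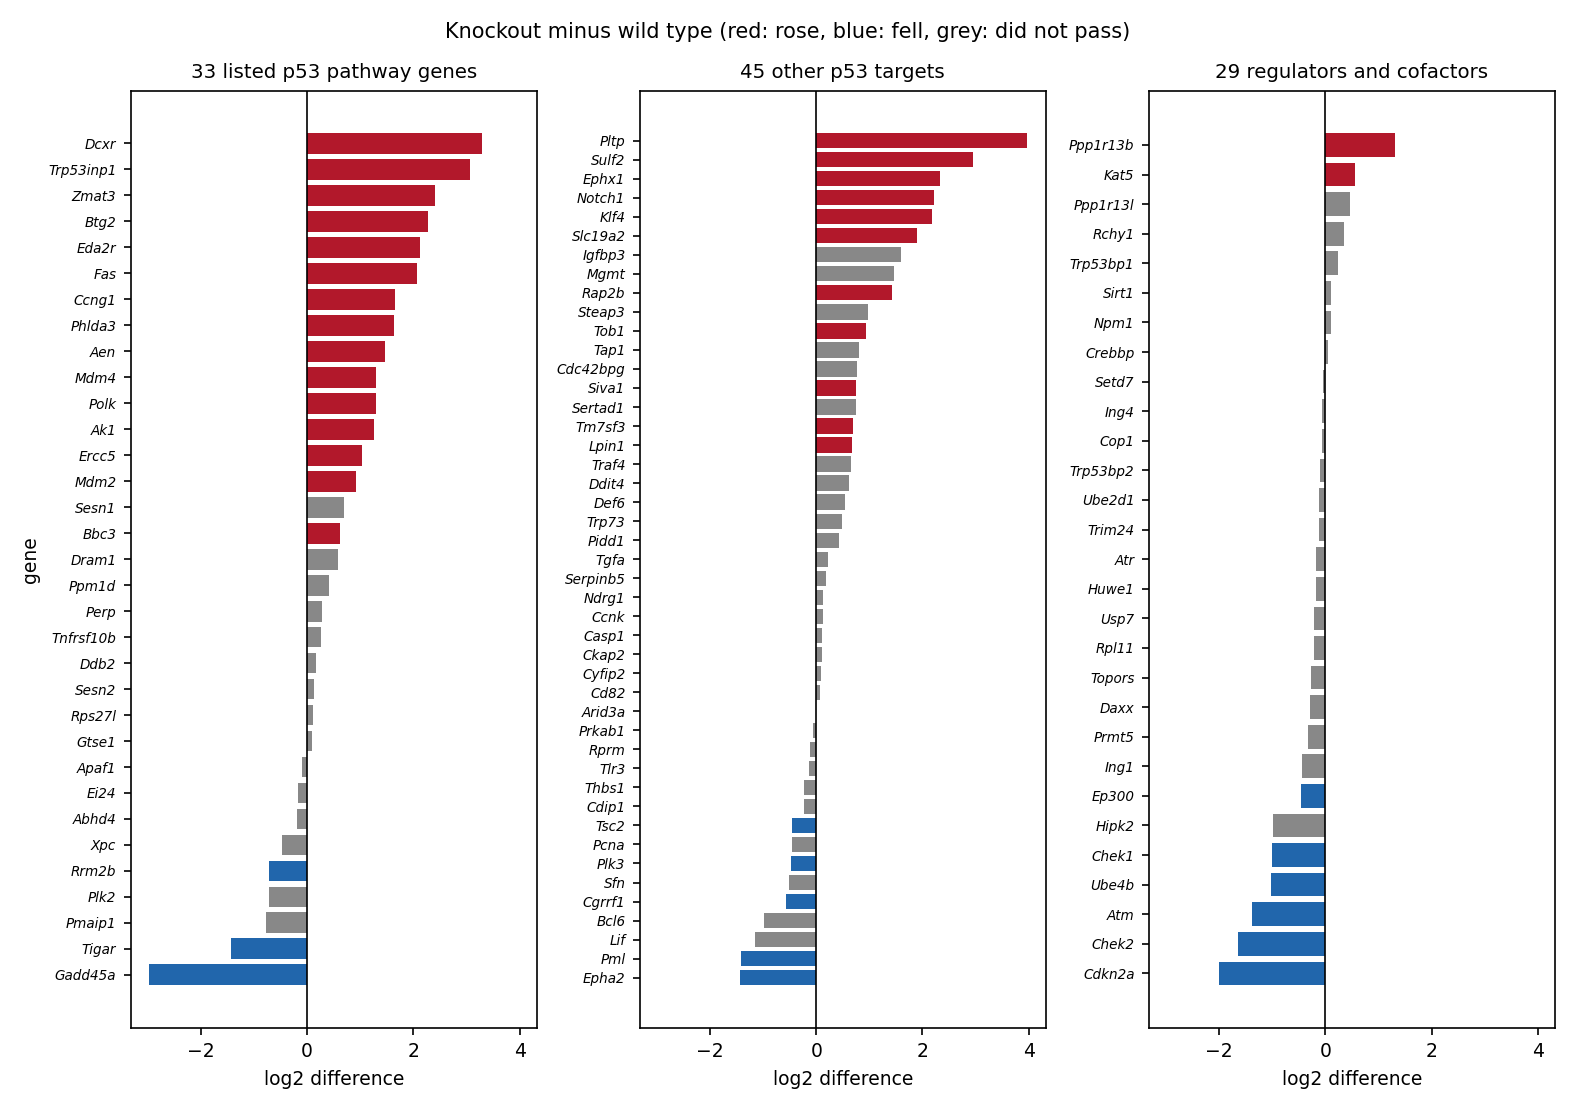
Log2 difference, knockout minus wild type, of the 33 listed p53 pathway genes, 45 other p53 targets and 29 regulators and cofactors (n = 3 clones per genotype). Red bars rose, blue bars fell and grey bars did not pass; red bars number 15, 11 and 2, and blue bars 3, 5 and 6.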

How the data were processed

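RNA from 3 FHL2 knockout and 3 wild type clones had been labelled with biotin for 3' expression arrays, per the labels' protocols. The deposited values are log2 intensities that the authors made with RMA, per the submitters' processing notes; the version of RMA is not given in the sources used. Values of wild type clone E carry 9 decimals and the others 3, and whether that array was processed separately is not given. Arrays have no read depth; 3 clones per genotype limit the precision (median SE 0.141 over all genes).

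Groups came from the sample titles. The 45101 probe sets were reduced to 34945 with 1 symbol in the platform annotation (64 controls, 932 with several symbols and 9160 without a name were left out). The RefSeq table of GRCm38.p6 held 34741 of these and changed 0 symbols. Each of the 18193 genes was read by whichever of its probe sets had the highest mean. The fit was limma 3.58.1 (R 4.3.3, lmFit and eBayes, genotype alone), with Benjamini-Hochberg adjustment over all genes at 0.05, tested on simulated data. Plots used matplotlib 3.10.9.

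The p53 genes, the second target list (45 of 50 measured), the regulators (29 of 32) and the rules were chosen with earlier results of these data known. From the last 2 lists, up to 5 passing genes with the smallest p each and Cdkn2a were named. Listed genes that were not measured are not analysed here. Percentiles rank a gene's mean over the 6 arrays among all genes. The neighbour adjustment subtracted, in each clone, the median of the 40 nearest genes, each relative to its own mean. Other alternatives were a trended robust prior, renewed quantile normalization, array median subtraction, genes at or above the median level, probe sets averaged or all tested, probe sets open to cross-hybridization (suffixes _a, _s and _x) left out, array weights, a 2-fold minimum and each clone left out.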

Additional observations from a re-analysis of the deposited data

How the results depend on the processing

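Each count was recomputed under 16 alternatives. Of the 33 genes, 13 to 17 rose and 2 or 3 fell in every alternative. Only 28 of them were tested among genes at or above the median level, and 31 without probe sets open to cross-hybridization. For the 18 that rose or fell, 257 of 269 recomputed values kept direction and call, 11 lost the call (Bbc3, Eda2r and Rrm2b) and 1 changed sign: Mdm2 was -0.0435 without probe sets open to cross-hybridization. Rrm2b also missed with quantile normalization again (-0.67, adjusted p = 0.0576). Of 219 values of genes that did not pass, 6 passed and 5 changed sign without passing. With probe sets averaged Apaf1 was 0.0883. Leaving out 1 clone gave -0.183 to 0.0191 for Apaf1, -0.0292 to 0.286 for Gtse1, -0.0317 to 0.172 for Rps27l and -0.0689 to 0.242 for Sesn2.

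Over all genes 3464 were called, 1495 with at least a 2-fold difference, and 1661 to 4750 when 1 clone was left out: 4750 without knockout clone H and 1661 to 2145 without any other. The second target list rose in 11 genes and fell in 5. With array weights 17 rose. At 2-fold, 7 rose and 2 fell. Without probe sets open to cross-hybridization 8 rose and 3 fell, and with neighbours subtracted 3 fell. Leaving out 1 clone gave 8 to 17 that rose and 1 to 5 that fell. Regulators that rose numbered 1 in place of 2 without such probe sets, with neighbours subtracted and at 2-fold, and 1 to 3 when 1 clone was left out. No paired analysis was possible because the clone letters do not pair the genotypes: only E is shared. Subtracting array medians moved the median of all genes from 0.04 to -0.01, and changed no count of the 33 genes.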
